A study of Mus musculus with 8 samples.

Results

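The 10 genes described here make, store, break down or export triglyceride, the main storage fat of the liver cell. They are Gpam, Agpat2, Lpin1, Lpin2, Dgat1, Dgat2, Plin2, Pnpla2, Pnpla3 and Mttp, taken by gene name from the 27277 genes of an RNA count table. All 10 were in the table and all 10 were among the 15135 genes with enough counts to be tested. The series compared primary hepatocytes of mouse liver from a control genotype, Lcmr1f/f, with a knockout genotype, Lcmr1f/f * albumin-cre, in which Cre is driven by the albumin promoter and so acts in hepatocytes. Med19, as the Lcmr1 gene is now called, encodes part of Mediator, through which transcription factors act on RNA polymerase II. Both genotypes carried the floxed alleles, and all cells were kept in culture for 24 h and given the fasting hormone glucagon at 100 nM for 12 h, so the effect of glucagon itself cannot be read from these data. There were 3 RNA libraries of each genotype, and 1 library of each from chromatin immunoprecipitation (ChIP). The sample titles name RNA polymerase III as the ChIP target ("RNA poll III") while the series design names Lcmr1, so the antibody is not settled by the labels.

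In the liver, triglyceride is built stepwise on a glycerol backbone. GPAM adds the first fatty acid, AGPAT2 the next, the lipins remove the phosphate to leave diacylglycerol, and DGAT1 or DGAT2 adds the last fatty acid. The product is stored in droplets coated by perilipins such as PLIN2, is released again by lipases such as PNPLA2, or is loaded by MTTP onto apolipoprotein B and leaves the cell in very low density lipoprotein.

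In the knockout libraries 2 of the 10 genes were higher (Pnpla3 and Dgat1), 3 were lower (Agpat2, Lpin2 and Mttp) and 5 had no call in the quasi-likelihood test of edgeR at an adjusted p of 0.05 over all genes tested. In that test 12.6% of all tested genes were called higher and 13.0% lower. The genes with no call were Gpam, Lpin1, Dgat2, Plin2 and Pnpla2. The largest called changes were those of Pnpla3, whose mean level was 7.49-fold higher, and Lpin2, whose mean level was 2.55-fold lower. The median log2 fold change of the 10 was -0.46, against 0.014 over all tested genes, with 7 values below 0 and 3 above. These values use TMM scaling, which sets most genes near no change. With library size alone as the scale the median of all tested genes rose by 0.588, the calls for these genes became 3 higher and 0 lower (2 lower at an unadjusted p under 0.05 in edgeR), where 50.9% of all tested genes were called higher and 4.08% lower, and Mttp, Gpam and Dgat2 changed sign.

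The RNA libraries held from 22191786 to 26595249 counts, and since the labels do not tie the replicates to separate animals, a p-value here reflects the spread between samples alone, which may be technical. Med19 stood at 7.50, 10.8 and 13.4 CPM (counts scaled to library size with TMM factors) in the control libraries and at 2.91, 5.27 and 3.02 in the knockout libraries, a log2 fold change of -1.50 (SE 0.31, adjusted p = 0.012 in edgeR, or 0.0505 without knockout replicate 1). Control replicate 1 stood apart: 13.6% of tested genes were at least 2-fold from the mean of the other controls there, against 5.68% for control replicates 2 and 3 and at most 4.86% for a knockout library. All 8 hepatocyte markers were lower in the knockout, with a summed level of 105900 to 120000 CPM in the controls, against 28460 to 37650 in the knockouts. Alb alone made up 74370 to 75830 CPM in the controls and 13930, 21130 and 13710 CPM in the knockouts. By marker, the mean level was from 1.61-fold (Ass1) to 4.62-fold (Alb) lower. Of 12 macrophage markers 9 were higher (386.6 to 477.8 against 778.8 to 924.5 CPM), of 12 stellate cell markers 1 (278.5 to 514.9 against 471.2 to 566 CPM) and of 10 endothelial markers 1 (299.2 to 372.1 against 356.2 to 593.1 CPM). Of the cholangiocyte markers 0 of 6 tested were called in edgeR (1 higher at an unadjusted p under 0.05, and 0 by DESeq2; 42.6 to 168.4 against 50.5 to 77.7 CPM). Of the 7 adipocyte markers with counts, 4 were under 1 CPM in every library, among them Plin1 and Adipoq, 1 of 3 tested was lower, and the sum was 18.8 to 76.5 against 16.5 to 44.9 CPM. No marker was at 0 in all libraries. With library size alone 5 of the 8 hepatocyte markers were lower, and 12 of 12 macrophage, 9 of 12 stellate cell and 10 of 10 endothelial markers were higher, as were 2 of the 6 cholangiocyte markers. In that fit 50.9% of all tested genes were called higher and 4.08% lower, against 12.6% and 13.0% with TMM scaling. In bulk RNA, fewer cells of a type and less RNA per cell cannot be told apart, and the part of these markers in the results below was not tested.

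Promoter windows of 300 bases (250 before to 50 after the start, mouse build GRCm38.p6, whose primary assembly is that of mm10) were taken from RefSeq for 8 of the 10 genes; Dgat1 and Dgat2 were not matched. A set of 4 windows is shown, as examples for genes the results turn on. Those of Plin2, of an internal start of Lpin2 and of 1 of 2 starts of Gpam lie under a region of the control list, and that of Pnpla3 lies under none. The window of the other Gpam start lies more than 2500 bases outside the gene as the count table places it, so regions there were not searched. Of the other windows not printed, that of Lpin1 lies under none, and the first Lpin2 window has 281 of its 300 bases under a control region. Each is written 5′ to 3′ on the strand of its gene, with letters in capitals where a motif was matched on either strand.
Pnpla3, chr15:84167566-84167865, plus strand: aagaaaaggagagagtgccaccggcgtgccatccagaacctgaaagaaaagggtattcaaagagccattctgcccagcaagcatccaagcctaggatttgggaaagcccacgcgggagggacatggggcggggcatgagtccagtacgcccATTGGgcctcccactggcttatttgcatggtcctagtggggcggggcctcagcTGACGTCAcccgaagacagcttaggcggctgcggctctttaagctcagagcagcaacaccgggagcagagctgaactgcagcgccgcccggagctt
Plin2, chr4:86670010-86670309, minus strand: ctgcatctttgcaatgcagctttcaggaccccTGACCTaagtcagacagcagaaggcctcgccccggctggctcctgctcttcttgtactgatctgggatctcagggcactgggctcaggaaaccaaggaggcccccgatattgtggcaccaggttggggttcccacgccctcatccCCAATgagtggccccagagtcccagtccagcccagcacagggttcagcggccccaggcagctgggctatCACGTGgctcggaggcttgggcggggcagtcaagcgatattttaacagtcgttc
Lpin2 internal start, chr17:71204404-71204703, plus strand: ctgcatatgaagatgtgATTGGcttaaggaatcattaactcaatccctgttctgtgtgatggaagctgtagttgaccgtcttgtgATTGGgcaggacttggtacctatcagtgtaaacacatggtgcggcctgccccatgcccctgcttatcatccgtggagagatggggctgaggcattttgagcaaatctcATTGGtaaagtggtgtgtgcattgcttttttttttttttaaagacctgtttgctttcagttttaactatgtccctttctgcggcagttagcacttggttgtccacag
Gpam, chr19:55099428-55099727, minus strand: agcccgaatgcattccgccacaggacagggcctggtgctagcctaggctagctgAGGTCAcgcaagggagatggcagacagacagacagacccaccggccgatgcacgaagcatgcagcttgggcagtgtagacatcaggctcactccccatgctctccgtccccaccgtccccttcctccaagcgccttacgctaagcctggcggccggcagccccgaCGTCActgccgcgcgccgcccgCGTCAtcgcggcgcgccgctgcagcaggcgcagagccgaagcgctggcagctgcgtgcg

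The motifs searched were the cyclic AMP response element TGACGTCA, its short form TGACG (which lies inside the full element), the E-box CACGTG, the nuclear receptor motif AGGTCA, the TATA box TATAAA and the CCAAT box CCAAT. On the other strand CCAAT reads ATTGG, and the short form reads CGTCA. The nuclear receptor motif there reads TGACCT. The Pnpla3 window holds the full cyclic AMP response element, which begins 46 bases before the start, and a CCAAT box at -99. That element was in 1.79% of 32851 RefSeq promoter windows of the same length and in 1 of the 11 windows of these genes, some of which have more than 1 RefSeq start. Plin2 holds an E-box at -4, a motif found in 7.15% of all windows and in 2 of the 11, a CCAAT box at -73 and a nuclear receptor motif at -218. The Gpam window holds short forms of the element at -31 and -9 and a nuclear receptor motif at -196, and the internal Lpin2 window holds CCAAT boxes at -233, -165 and -57. Over all windows the short form was in 20.8%, the nuclear receptor motif in 16.3%, the CCAAT box in 37.4% and the TATA box in 13.6%, against 4, 3, 4 and 0 of the 11. A match describes the letters and is no sign of binding.

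Gpam (ENSMUSG00000024978, chr19:55069734-55099451, mm10, minus strand), the mitochondrial acyltransferase of the first step, had no call. It stood at 78.5, 106 and 93.3 CPM in control replicates 1, 2 and 3 and at 62.1, 91.9 and 51.0 CPM in knockout replicates 1, 2 and 3. Knockout replicate 2 lay within the control range and the other knockout libraries below it. The log2 difference was -0.44 (SE 0.22, adjusted p = 0.184 in edgeR). Without knockout replicate 2 it was -0.73 and passed the test (edgeR adjusted p = 0.0329), without knockout replicate 3 it was -0.28, and under library size alone it was 0.14.

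Agpat2 (ENSMUSG00000026922, chr2:26593057-26604417, minus strand), which makes phosphatidic acid, was lower in the knockout. Its levels were 305, 245 and 260 CPM in the controls, against 128, 139 and 162 CPM in the knockouts, or 270 ± 31.4 against 143 ± 17.9 CPM (SD, n = 3). The groups did not overlap, as was true of 22.4% of all tested genes in this direction and of 4 of the 10 genes here (Agpat2, Lpin2, Plin2 and Mttp). The change was -0.92 on the log2 scale (SE 0.14, adjusted p = 0.00374 in edgeR), a level 1.89-fold lower. Agpat2 kept this call in every fit that left out 1 library and lost it under library size alone (-0.32, edgeR adjusted p = 0.0811). The gene overlaps Egfl7 on the opposite strand by 64 bases, and the sources used here do not give the strand setting of the counting.

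Lpin1 and Lpin2 encode phosphatidic acid phosphatases, which also act on gene expression as coactivators. Lpin1 (ENSMUSG00000020593, chr12:16535669-16610966, minus strand) varied widely within both groups. It stood at 131, 481 and 438 CPM in the controls, against 276, 303 and 97.9 CPM in the knockouts. Control replicate 1 and knockout replicate 3 were low, the ranges overlapped, and the log2 fold change of -0.63 carried an SE of 0.61 (edgeR adjusted p = 0.488). Without control replicate 1 it was -1.03, without control replicate 2 -0.34, without knockout replicate 3 -0.28 and under library size alone -0.08, each with no call (edgeR adjusted p from 0.231 to 0.918).

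Lpin2 (ENSMUSG00000024052, chr17:71182560-71249817, plus strand) was lower in the knockout. Its levels were 390, 601 and 567 CPM in the controls, against 199, 280 and 131 CPM in the knockouts, 519 ± 113 against 203 ± 74.2 CPM (SD, n = 3). Control replicate 1 was the lowest control and was still above every knockout library. This was a log2 fold change of -1.35 (SE 0.29, adjusted p = 0.0161 in edgeR), a level 2.55-fold lower. The call rested on a margin that single libraries set: the edgeR adjusted p was 0.0503 without control replicate 3, 0.0591 without knockout replicate 1, 0.0704 with no count filter and 0.0510 under library size alone, where the log2 fold change was -0.78.

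Dgat1 (ENSMUSG00000022555, chr15:76502015-76511951, minus strand), an acyltransferase of the endoplasmic reticulum that also re-esterifies released fatty acids, was higher in the knockout. It stood at 42.5, 33.3 and 35.01 CPM in the controls, against 54.3, 45.6 and 55.8 CPM in the knockouts, 36.9 ± 4.87 against 51.9 ± 5.52 CPM (SD, n = 3). Every knockout library was above every control library, as for 2 of the 10 genes and for 23.5% of all tested genes in this direction. The log2 value was 0.49 (SE 0.14, adjusted p = 0.0346 in edgeR), a 1.41-fold rise. It missed the threshold without control replicate 2 (edgeR adjusted p = 0.123), control replicate 3 (0.117), knockout replicate 1 (0.122) or knockout replicate 3 (0.112), and was 1.09 under library size alone (edgeR adjusted p = 0.00076).

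Dgat2 (ENSMUSG00000030747, chr7:99153658-99182719, minus strand), the acyltransferase that acts mainly on newly made fatty acids, had no call. Its levels were 484, 651 and 674 CPM in the controls, against 587, 538 and 495 CPM in the knockouts. All knockout libraries lay between control replicate 1 and control replicate 2. The log2 difference was -0.16 (SE 0.15, adjusted p = 0.473 in edgeR), -0.30 without control replicate 1, -0.08 without control replicate 3 and 0.42 under library size alone, in each case without a call.

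Plin2 (ENSMUSG00000028494, chr4:86648386-86670060, minus strand), the main coat protein of hepatocyte lipid droplets, had the lowest log2 fold change of the 10 and yet no call. It stood at 2953, 767 and 775 CPM in the controls, against 428, 567 and 275 CPM in the knockouts. The groups did not overlap, but control replicate 1 held 3.83 times the mean of the other controls. The log2 difference was -1.82 (SE 0.63, adjusted p = 0.0848 in edgeR). Without control replicate 1 it was -0.87 (SE 0.29, adjusted p = 0.0686 in edgeR), so the difference was smaller without that 1 library. Under library size alone it was -1.21 (edgeR adjusted p = 0.119).

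Pnpla2 (ENSMUSG00000025509, chr7:141455198-141460743, plus strand), known as adipose triglyceride lipase, had no call. Its levels were 291, 139 and 149 CPM in the controls, against 253, 194 and 192 CPM in the knockouts. Control replicate 1 was above all knockout libraries and the other controls were below them. With all libraries the log2 difference was 0.14 (SE 0.30, adjusted p = 0.757 in edgeR). Without control replicate 1 it was 0.56 and was called higher (SE 0.14, adjusted p = 0.0167 in edgeR); in that fit 3 of the 10 genes were called higher and 3 lower, where 15.3% and 16.0% of 15741 tested genes were. Under library size alone it was 0.75, also called higher (edgeR adjusted p = 0.0419).

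Pnpla3 (ENSMUSG00000041653, chr15:84167816-84189512, plus strand), a relative of Pnpla2 found on lipid droplets, had the largest change of the 10. It had 4, 17 and 20 counts in the controls, against 145, 181 and 166 in the knockouts, which sum to 41 against 492. These are 0.195, 0.811 and 1.08 CPM against 4.68, 5.75 and 5.17 CPM, with no overlap. The change was 2.91 on the log2 scale (SE 0.47, adjusted p = 0.00483 in edgeR), and the mean CPM was 7.49-fold higher. The gene remained called in every setting tried, from 2.46 without control replicate 1, its lowest control, to 3.48 under library size alone.

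Mttp (ENSMUSG00000028158, chr3:138089854-138144968, minus strand), which transfers lipid to apolipoprotein B, was lower in the knockout and varied least among the controls. It stood at 344, 331 and 329 CPM in the controls, against 237, 266 and 216 CPM in the knockouts, 334 ± 8.0 against 240 ± 24.6 CPM (SD, n = 3). The change was -0.48 on the log2 scale (SE 0.12, adjusted p = 0.0204 in edgeR). It became 0.11 with no call under library size alone (edgeR adjusted p = 0.423). It also missed the threshold without control replicate 2 (edgeR adjusted p = 0.0620), control replicate 3 (0.0624), knockout replicate 1 (0.0778) or knockout replicate 3 (0.0629). The gene overlaps Trmt10a by 1521 bases and Gm43691 by 10802 bases, both on the opposite strand and with means of at most 168.7 counts per group.

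**Figure D1:**
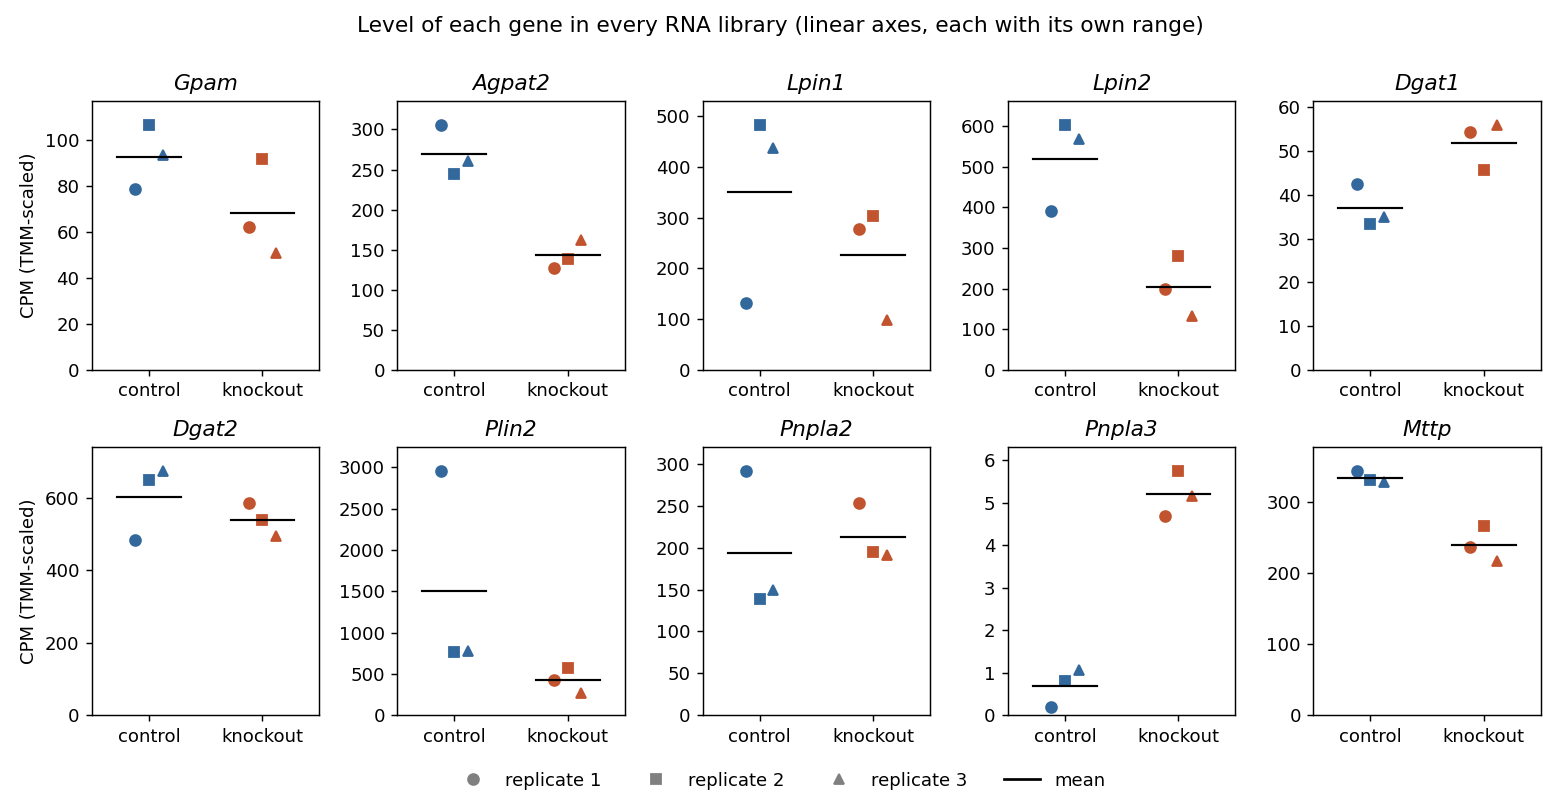
Level of each gene in CPM (vertical axis, linear, TMM-scaled) in the 3 control and 3 knockout libraries, with a symbol for each replicate and a line for the group mean. Agpat2, Lpin2, Plin2 and Mttp were lower and Dgat1 and Pnpla3 higher without overlap, and control replicate 1 (circle) is far from the other controls in Plin2, Pnpla2 and Lpin1.

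**Figure D2:**
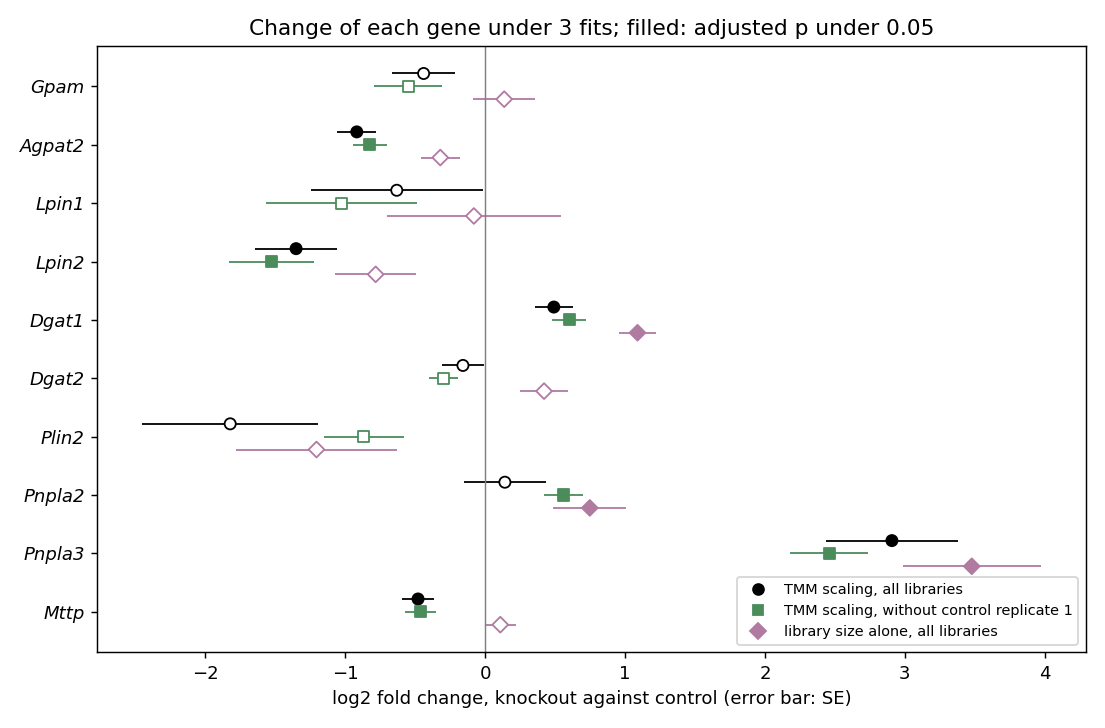
Log2 fold change of each gene, knockout against control (horizontal axis, with SE), in the fit with TMM scaling and all libraries, without control replicate 1, and with library size alone; filled symbols have an edgeR adjusted p under 0.05. Pnpla3 lies between 2.46 and 3.48 in all 3 fits, Plin2 moves from -1.82 to -0.87 without control replicate 1, and Mttp, Gpam and Dgat2 cross 0 under library size alone.

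The authors' deposited table gives log2 fold changes close to these, from the same counts. For each of the 10 genes the value is that of the DESeq2 fit made here. That DESeq2 fit gave Agpat2 an adjusted p of 1.05e-06, where edgeR gave 0.00374. In the authors' deposited table Pnpla3 has 2.91 with an adjusted p of 1.51e-09 and Lpin2 has -1.36 with an adjusted p of 3.93e-05, and of the 10 genes these are the ones marked significant. The authors' deposited table also gives adjusted p-values of 1.08e-06 for Agpat2, 0.00474 for Mttp and 0.0331 for Dgat1, without that mark. Plin2 has -1.84 with an adjusted p of 0.0641 in the authors' deposited table.

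Ratios of counts within a library do not depend on the scaling between libraries, and 6 were compared by an exact two-sided permutation test, which with 3 libraries a group cannot give a p below 0.1. The log2 ratio of Plin2 to Pnpla2, droplet coat to droplet lipase, was 3.34, 2.47 and 2.38 in the controls, against 0.76, 1.54 and 0.52 in the knockouts. It was lower in every knockout library, by 1.79 on average (2.73 ± 0.53 against 0.94 ± 0.54, SD, n = 3, exact p = 0.1, adjusted over the 6 ratios 0.2). The ratio of Pnpla3 to Pnpla2 was -10.2, -7.34 and -7.04 in the controls, against -5.75, -5.07 and -5.20 in the knockouts, a difference of 2.86 without overlap (exact p = 0.1, adjusted 0.2). Without control replicate 1 that difference was 1.85.

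The ratio of Mttp to Apob, the transfer protein to the protein it loads, was -3.74, -3.49 and -3.51 in the controls, against -3.29, -3.25 and -3.42 in the knockouts. It was higher in every knockout library, by 0.26 (exact p = 0.1, adjusted 0.2). The ratio of Dgat2 to Dgat1 was 3.51, 4.29 and 4.27 in the controls, against 3.43, 3.56 and 3.15 in the knockouts, and control replicate 1 lay within the knockout range (difference -0.64, exact p = 0.2, adjusted 0.3). The ratio of Lpin2 to Lpin1 overlapped between the groups (difference -0.81, exact p = 0.3, adjusted 0.36), and the difference was -0.40 without control replicate 1. So did that of G0s2, the inhibitor of Pnpla2, to Pnpla2 (difference 0.85, exact p = 0.9, adjusted 0.9), which was -5.15 in control replicate 1 and -1.45 and -1.08 in the other controls and became -0.45 without control replicate 1.

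**Figure D3:**
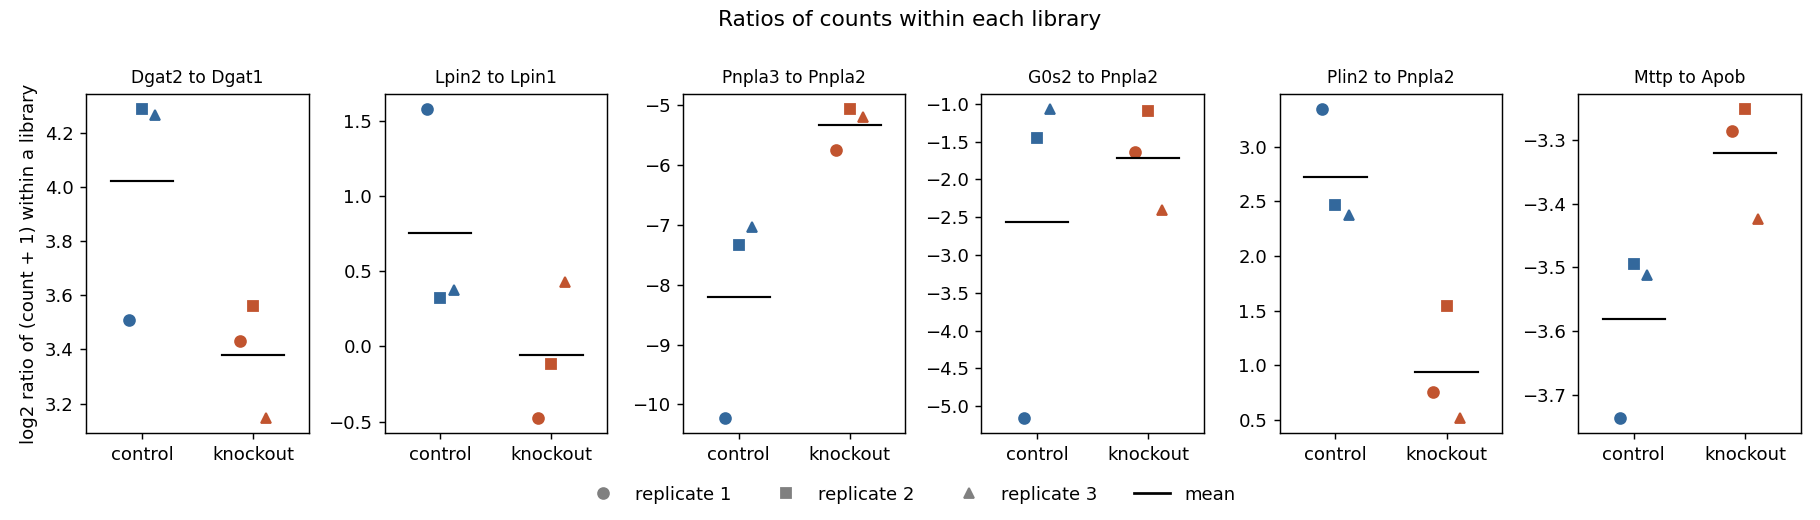
Log2 ratio of counts plus 1 between pairs of genes within each library (vertical axis, each panel with its own range), with a symbol for each replicate and a line for the group mean. The groups do not overlap for Pnpla3 to Pnpla2, Plin2 to Pnpla2 and Mttp to Apob, and the exact p of 0.1 is the smallest this design can give.

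Around the 10 genes, lists of 57 other genes of the pathway were examined, of which 56 were in the table and 54 were tested. Of these 4 were higher and 19 lower in the knockout, against 21 higher and 9 lower under library size alone and 10 higher and 22 lower without control replicate 1. Over all tested genes 12.6% were called higher and 13.0% lower. The shares were 50.9% and 4.08% under library size alone, and 15.3% and 16.0% without control replicate 1. The same shares apply to the counts of each list below. In glycerolipid synthesis 4 of 19 tested genes were higher, 4 lower, and the median log2 fold change was 0.10 (under library size alone 9 were higher and 3 lower). The acyltransferase Agpat1, which catalyses the same step as Agpat2, rose to 58.5 ± 6.71 CPM from 22.3 ± 2.23 (SD, n = 3), a log2 fold change of 1.39 (SE 0.13, adjusted p = 0.000613 in edgeR), and Agpat5 rose by 0.72 (edgeR adjusted p = 0.00832). The lipin Lpin3 rose by 1.09 (edgeR adjusted p = 0.00539). Agpat1 and Agpat5 share the step of Agpat2, and Lpin3 that of Lpin2, both of which were lower. The acyl-CoA synthetase Acsl3 was higher at 0.60 (edgeR adjusted p = 0.0217), a call lost without control replicate 2 or 3 or knockout replicate 2 or 3 (edgeR adjusted p from 0.0726 to 0.0863). Lower were Acsl1, the main acyl-CoA synthetase of liver (-1.48, edgeR adjusted p = 0.00208), glycerol kinase Gk (-1.16, 0.0103), Gpat4 (-0.63, 0.0192; -0.04 with no call under library size alone) and Mogat1 (-3.91, 0.00421), which was under 2 CPM in every library.

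Among coat and growth factors of the droplet 0 of 14 tested genes were higher in edgeR (0 at an unadjusted p under 0.05, and 0 by DESeq2) and 4 lower, with a median of -0.29. With library size alone 4 were higher and 1 lower. Fitm1, which helps droplets form at the endoplasmic reticulum, went from 39.3 ± 16.4 down to 3.45 ± 1.12 CPM (SD, n = 3), a log2 fold change of -3.51 (SE 0.41, adjusted p = 0.00193 in edgeR). The droplet enzymes Hsd17b11 (-0.63) and Hsd17b13 (-0.64) and the droplet GTPase Rab18 (-0.50) were lower as well, with edgeR adjusted p of 0.00579, 0.0123 and 0.0276. Under library size alone these 3 stood at -0.04, -0.05 and 0.10 with no call. Without knockout replicate 1 Hsd17b13 had an edgeR adjusted p of 0.0595, and without any 1 of the knockout replicates Rab18 had 0.0673 to 0.0899. Plin5 (-0.52, edgeR adjusted p = 0.403), Cidec (-0.25, 0.854) and Cideb (0.00, 0.987) had no call, and Cideb was called higher under library size alone (0.59, edgeR adjusted p = 0.0181). Like Plin2, Cidec and Plin5 were high in control replicate 1, at 5.96 and 2.33 times the mean of the other controls, and without that library their log2 fold changes were 1.15 and 0.01.

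In triglyceride breakdown 0 of 12 tested genes were higher in edgeR (2 at an unadjusted p under 0.05, and 0 by DESeq2) and 5 lower, with a median of -0.14, where library size alone gave 5 higher and 3 lower. The carboxylesterases Ces1d (-1.56, edgeR adjusted p = 0.00157), Ces1f (-3.35, 0.00193) and Ces1g (-2.72, 0.00514) were lower, though these are similar neighbouring genes whose reads the counting could split. The esterase Aadac (-0.73, edgeR adjusted p = 0.0202) and hepatic lipase Lipc (-0.98, 0.00850) were lower too and had no call under library size alone (-0.15 and -0.41). Aadac also missed the threshold without control replicate 2 or 3 or knockout replicate 1 or 3 (edgeR adjusted p from 0.0638 to 0.0720). The partners of Pnpla2 had no call: its coactivator Abhd5 had 0.60 (edgeR adjusted p = 0.0706) and G0s2 had 0.68 (0.557), with 8.13, 50.6 and 70.8 CPM in the controls, against 81.3, 90.6 and 36.2 CPM in the knockouts. Abhd5 was called higher with upper quartile factors (0.68, edgeR adjusted p = 0.0444), with no count filter (0.62, 0.0312) and under library size alone (1.19, 0.0020).

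In lipoprotein assembly 0 of 9 tested genes were higher in edgeR (1 at an unadjusted p under 0.05, and 0 by DESeq2) and 6 lower, with a median of -0.65, where library size alone gave 3 higher and 2 lower. Apoc3, an inhibitor of lipoprotein lipase, was 1469 ± 101 CPM in the controls, against 513 ± 78.5 CPM in the knockouts (SD, n = 3), a log2 fold change of -1.52 (SE 0.14, adjusted p = 0.000613 in edgeR). P4hb, the partner subunit of MTTP in the transfer complex, was 2269 ± 146 and 1209 ± 11.9 CPM (log2 fold change -0.91, SE 0.11, edgeR adjusted p = 0.00129), and Apob fell by 0.75 (edgeR adjusted p = 0.00513; -0.16 with no call under library size alone). The others that were lower, named after their values were seen, were Sec24a (-0.86), Mia3 (-0.65) and Surf4 (-0.55), of the export route from the endoplasmic reticulum. Under library size alone they stood at -0.27, -0.06 and 0.05 with no call, and Surf4 missed the threshold without any 1 library other than control replicate 1 (edgeR adjusted p from 0.0551 to 0.116). Tm6sf2, which aids lipid loading, had 0.66 with no call (edgeR adjusted p = 0.0920), and was called higher without knockout replicate 2 (0.86, edgeR adjusted p = 0.0380), with a replicate block (0.64, 0.0452) and under library size alone (1.27, 0.00472). Without knockout replicate 3 it was 0.43.

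**Figure D4:**
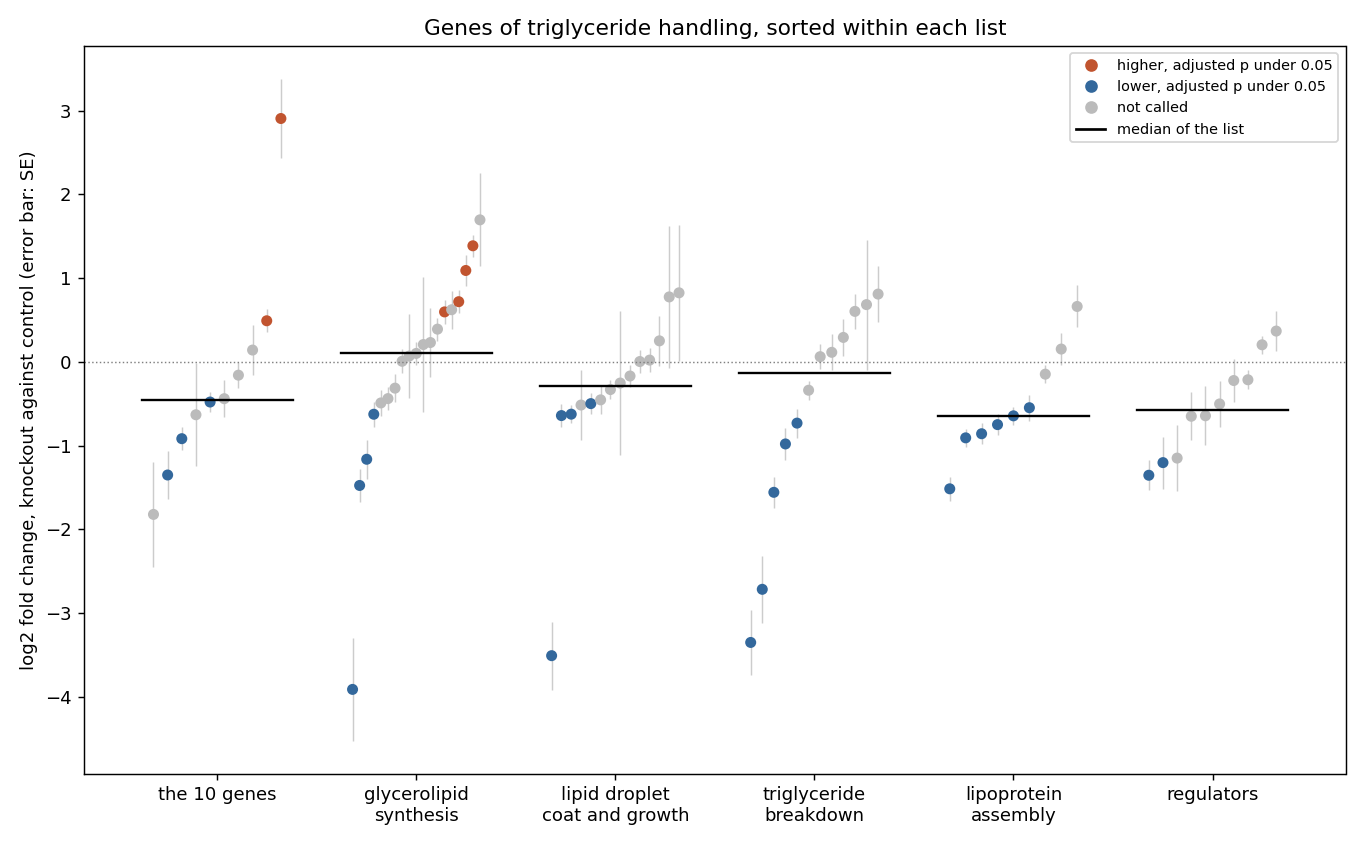
Log2 fold change with SE (vertical axis, TMM scaling) of the 10 genes and of every tested gene of 4 pathway lists and a list of regulators, sorted within each list, with a line at the median. Lipoprotein assembly has a median of -0.65 and glycerolipid synthesis 0.10; under library size alone the median of all tested genes moves up by 0.588.

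Of 10 transcription regulators of lipid metabolism 0 were higher in edgeR (0 at an unadjusted p under 0.05, and 0 by DESeq2) and 2 lower, with a median of -0.57. Under library size alone 3 were higher and 1 lower. Over all tested genes 12.6% were called higher and 13.0% lower with TMM scaling, and 50.9% and 4.08% with library size alone. Hnf4a, the hepatocyte factor that acts on Mttp and Apob, was lower, at 584 ± 99.1 CPM against 1492 ± 262 in the controls (SD, n = 3), a log2 fold change of -1.36 (SE 0.18, adjusted p = 0.00224 in edgeR). Pparg (-1.20, edgeR adjusted p = 0.0272) was also lower, but under library size alone it stood at -0.62 with no call. Pparg missed the threshold without control replicate 2 or 3 or knockout replicate 1 or 2 (edgeR adjusted p from 0.0788 to 0.0914). Srebf1 (-0.64, edgeR adjusted p = 0.223) and Mlxipl (-0.50, 0.209), the sterol- and glucose-responsive factors of fat synthesis, had no call with all libraries. Control replicate 1 was their lowest control, and without it they were called lower, at -0.96 and -0.78 (edgeR adjusted p = 0.00828 and 0.000772). Ppara (-0.65, edgeR adjusted p = 0.137) and Ppargc1a (0.37, 0.290) had no call, and without control replicate 1 were called lower and higher, at -0.89 and 0.67 (0.0211 and 0.0178). Xbp1 (-1.15, edgeR adjusted p = 0.0755, or 0.00738 by DESeq2 and 0.0317 with a replicate block), Nr1h3 (0.20, 0.193), Foxo1 (-0.21, 0.205) and Creb3l3 (-0.22, 0.557) had no call, and Nr1h3, Foxo1 and Ppargc1a were called higher under library size alone (0.79, 0.38 and 0.97).

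The ChIP lists hold 16995 regions in the control, covering 10.4 Mb, and 1309 in the knockout, covering 0.67 Mb. With 1 library per genotype there is no test, and fold and q are the authors' own values for each peak within its list. Within 2500 bases of the 10 genes lay 55 control regions, over 9 of the genes, and 23 knockout regions, over 5. Among all tested genes 44.9% had a control region and 5.37% a knockout region, and 11.2% of those with a control region also had one in the knockout. Pnpla3, the gene with the largest rise in RNA, had a region in neither list.

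In the control list, regions covered most of the length of 4 of the genes: 94.0% of Dgat2, 72.4% of Plin2, 70.4% of Lpin1 and 65.6% of Lpin2. At least 50% of the gene was covered in 1.47% of all tested genes. The highest folds within 2500 bases of these genes were 22.2 at Dgat2, 21.6 at Lpin1, 19.7 at Plin2 and 18.9 at Lpin2, which placed them among the top 1.15% to 1.82% of 22793 summits of that list. The Lpin2 summit lay past the gene's end, 67942 bases after the start of a gene of 67258 bases. Emilin2 lies 2358 bases from Lpin2 on the opposite strand. The longest region was 32402 bases over Lpin1, against a median length of 381 bases over the list. Of these 4 genes, Lpin2 was lower in RNA and the others had no call.

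The long regions did not always begin at the annotated start. Over Lpin1 the first began 21064 bases into the gene, and the RefSeq promoter window of Lpin1 lay under none. Over Lpin2 control regions covered 10.3% of the gene before the internal start whose window is shown above (chr17:71204654) and 92.7% after it. Over Plin2 a single region of 15161 bases began 218 bases before the start, and it covered 269 of the 300 bases of the Plin2 window. Over Dgat2 a region of 994 bases lay at the start, and one of 20873 bases began 2380 bases after it.

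Over the other genes the control regions were shorter. Agpat2 had 5 that covered 27.4% of it, with the highest fold (7.84) 9862 bases after the start, near its end. Pnpla2 had 5 over 19.1%, the highest (7.15) 94 bases after the start, and Dgat1 had 3 over 10.2%, 1 of them with its summit 6 bases before the start. Mttp had 8 over 5.1%, the highest (9.33) 1006 bases after the start in the count table but 544 bases before the RefSeq start of the Mttp window, and Gpam had 9 over 6.7%, 1 of which covered the whole Gpam window shown above. Within 500 bases of the start as the count table gives it, 6 of the 10 genes had a control region (Gpam, Agpat2, Dgat1, Dgat2, Plin2 and Pnpla2), as did 30.2% of all tested genes. The RefSeq windows of Lpin2 and Mttp, whose starts differ from those in the table, also lay partly under control regions (281 and 125 of 300 bases). Trmt10a and Gm43691 overlap Mttp on the opposite strand by 1521 and 10802 bases, so the regions near Mttp cannot be assigned to it alone. The regions near Dgat1 cannot be assigned to it alone, since Hsf1 lies 101 bases away on the opposite strand. The same holds for Pnpla2, with Cracr2b 350 bases away on the same strand and Gm10575 737 bases away on the opposite strand. The Pnpla2 region from 6480 to 6800 bases after the start lay past the end of that gene, which is 5546 bases long.

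In the knockout list Dgat2 had 10 regions, Lpin1 6, Agpat2 5, Plin2 1 and Gpam 1, and Lpin2, Dgat1, Pnpla2, Pnpla3 and Mttp had none. These regions covered 10.2% of Dgat2, 5.1% of Agpat2, 2.0% of Lpin1, 1.3% of Plin2 and 0.4% of Gpam. Some lay past the end of their gene. For Agpat2, 11361 bases long, these were the regions from 12047 to 14219 bases after the start, among them its highest knockout fold (7.14). For Dgat2, 29062 bases long, they were those from 30139 to 31296 bases. Egfl7 overlaps Agpat2 by 64 bases on the opposite strand, so the regions near Agpat2 cannot be assigned to it alone. Of the 4 genes covered by at least 50% in the control, 3 thus had a knockout region, as did 64.9% of all tested genes with such coverage. Lpin2 had none, and the single knockout region over Plin2 had a -log10 q of 3.06. The region at Gpam was the one knockout region within 500 bases of a start among the 10 genes, where 1.71% of all tested genes had one. Its summit was 1 base before the start, with a fold of 6.39 and a -log10 q of 5.21, and it covered 156 of the 300 bases of the Gpam window. The depth of the ChIP libraries was not analysed here, and its part in the shorter knockout list was not tested.

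**Figure D5:**
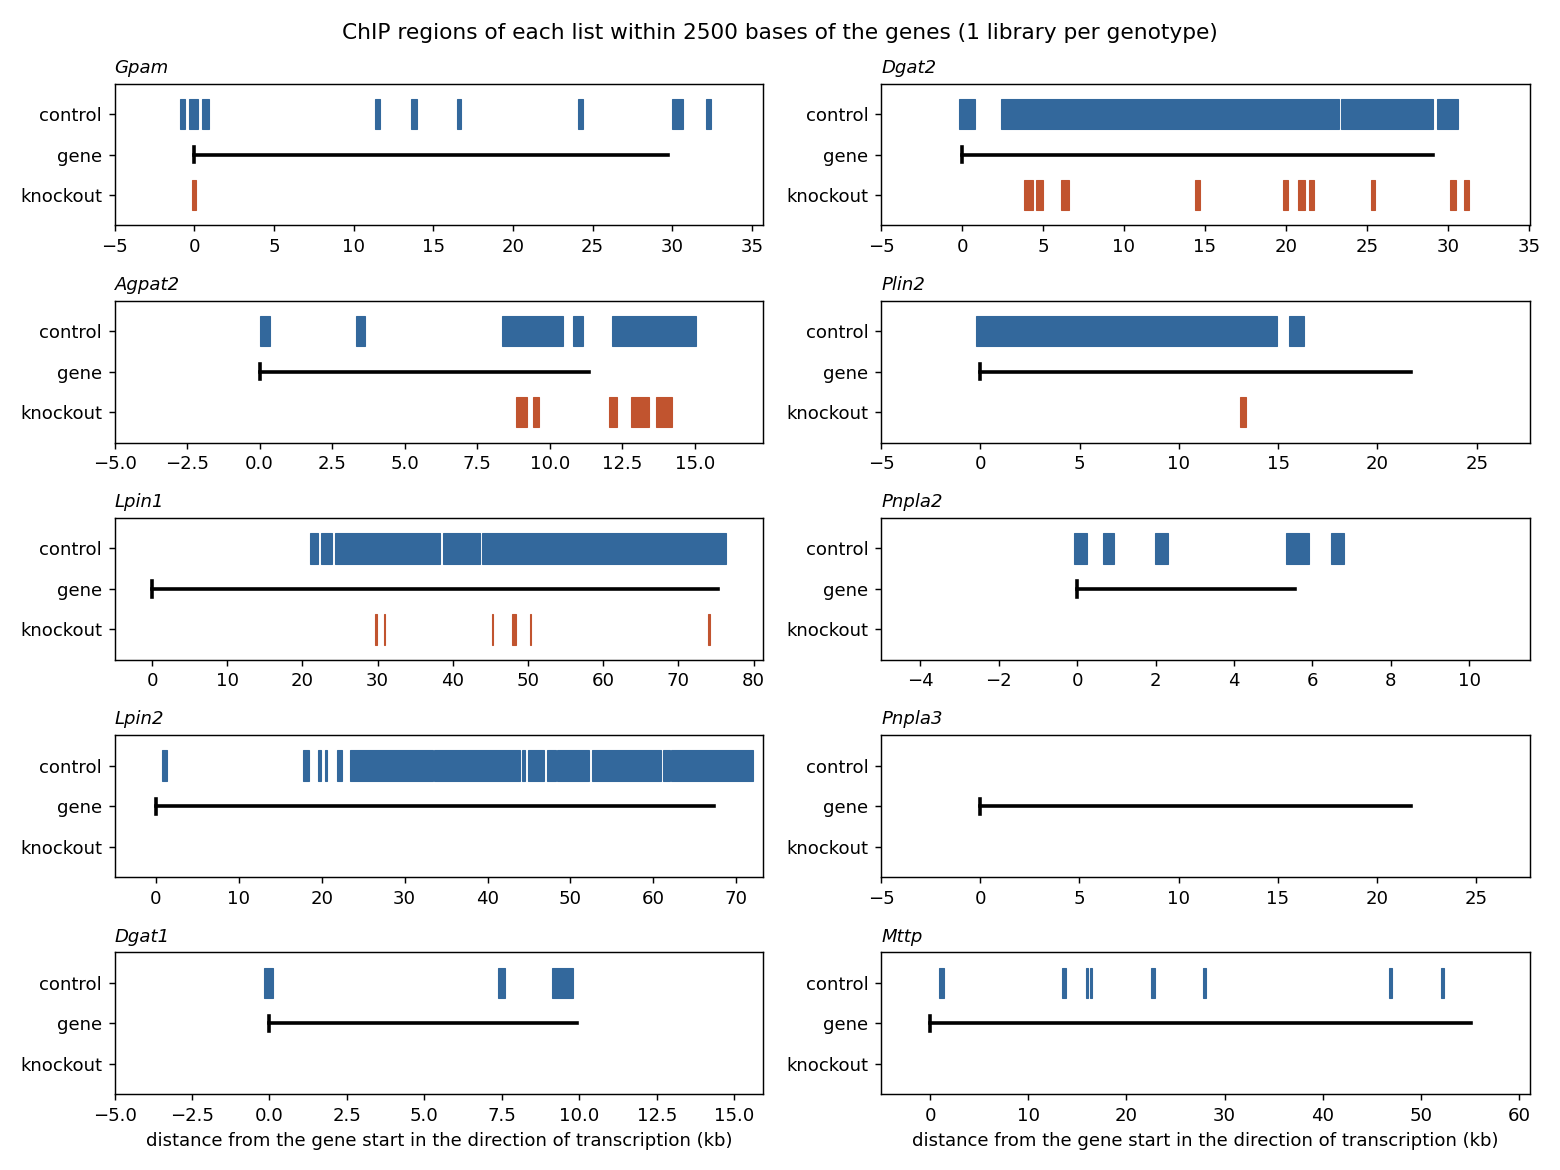
Regions of the control list (top of each panel) and the knockout list (bottom) along each gene (black line, start at the tick), by distance from the gene start in kb in the direction of transcription. Control regions fill 94.0% of Dgat2, 72.4% of Plin2 and the later part of Lpin2 and begin well inside Lpin1, Pnpla3 has none, and knockout regions lie over 5 of the 10 genes.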

How the data were processed

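RNA was measured in 3 control and 3 knockout libraries of primary mouse hepatocytes and ChIP in 1 library per genotype; groups come from the genotype labels and replicate numbers from the titles. The 10 genes and the gene lists were chosen with earlier results of these data known. Per the submitters' processing notes the RNA files were made on mm10 using Bowtie2 2.2.3, HISAT2 2.1.0 and HTSeq 0.6.0, and the ChIP files using MACS2, BWA, deepTools, SAMtools and DESeq2 (no versions); the sources used here do not give the strand setting or whether an input was used. The authors deposited whole-number counts per gene, and in the same table their own log2 fold change and adjusted p-value, with a mark for significance. The authors deposited 1 peak list per ChIP library, with a score (not used here), a fold enrichment and a −log10 q-value for each summit.

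Counts were filtered with filterByExpr (minimum count 10, total 15), scaled by TMM (factors 0.7725 to 0.8375 in the controls and 1.196 to 1.269 in the knockouts) and tested with edgeR 4.0.16 (two-sided quasi-likelihood test, R 4.3.3), with genotype as the one term and Benjamini-Hochberg adjustment over 15135 genes (threshold 0.05). The common biological coefficient of variation was 0.235. The script was tested on simulated data. Every replicate pair differed by more than sampling noise (chi-square per degree of freedom from 6.84 to 134.92). Peaks that share a region were joined, and regions were assigned to a gene by at least 1 base of overlap with the gene and 2500 bases on either side. Named are the 10 genes, Med19, 10 regulators (1 more gene of that list is not reported here), in each pathway list the 2 genes with the smallest adjusted p in each direction or all where 5 or fewer passed, and Abhd5, G0s2, Apob, Tm6sf2, Plin5, Cidec and Cideb. Levels were not compared between genes, since exon lengths were not used here. Alternatives were other scalings and filters, DESeq2 1.42.0, leaving out each library, a replicate block, other counts added to the ratios, and other windows, overlaps and q for the ChIP regions.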

Additional observations from a re-analysis of the deposited data

How the results depend on the processing

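With library size alone as the scale 0 of the 10 genes were lower, their median log2 fold change was 0.12, and the pathway lists had 21 genes higher and 9 lower with a median of 0.40 (-0.21 with TMM). On that scale 50.9% of all tested genes were called higher and 4.08% lower. Signs turned there for Gpam (0.14), Dgat2 (0.42), Mttp (0.11), Plin5 (0.087), Cidec (0.37), Mlxipl (0.071), Foxo1 (0.38), Creb3l3 (0.37), Rab18 (0.10) and Surf4 (0.048). Upper quartile factors gave 7 pathway genes higher and medians of -0.39 (the 10 genes) and -0.13 (pathway), DESeq2 a pathway median of -0.30, and Cideb became -0.005 with RLE factors and -0.008 with DESeq2; the cause was not tested. Leaving out 1 library in turn gave 1 to 4 of the 10 genes lower and 1 to 3 higher, 3 to 10 pathway genes higher, medians of -0.65 to -0.28 (the 10 genes) and -0.27 to -0.15 (pathway), and values of -0.057 to 0.56 for Pnpla2, -0.73 to 0.011 for Plin5, -0.65 to 1.15 for Cidec, -0.13 to 0.11 for Cideb and -0.45 to 1.59 for the ratio of G0s2 to Pnpla2. The correlations of the deviations of the libraries were 0.11, 0.052 and 0.094 for equal numbers, against -0.089 to 0.02 for unequal numbers. Each library correlated best with its own number, but all values were small. Whether equal numbers mark pairs is not settled by them or by the labels. The replicate block left 2 of the 10 genes higher and 3 lower, with Pnpla3 at 3.02 (edgeR adjusted p = 0.0081), turned Cidec to 0.095, and brought the calls of Xbp1 (-1.11, edgeR adjusted p = 0.0317) and Tm6sf2 (0.64, 0.0452). With a −log10 q of at least 5, 5 of the 23 knockout regions over the 10 genes remained.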
